A study of Mus musculus with 11 samples.

Results

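The genes Slc16a1, Slc16a3, Slc5a8, Bsg, Ffar2, Acsm3, Acads, Hadh and Bdh1 encode proteins with which cells of the colon take up, sense and burn short-chain fatty acids. These 9 of the 22243 genes in the deposited table were picked by symbol for that role, not by a rule on their values. Earlier results of these data were known when they were chosen. RNA was measured in the whole wall of the distal colon, in 6 wild-type mice (WT) and in 5 Nrg4-/- mice (KO), which lack neuregulin-4, a ligand of the receptor ErbB4. All mice were 11 to 12 weeks old, and from 9 weeks of age the genotypes had shared cages A (2 WT, 2 KO), B (2 WT, 2 KO) and C (2 WT, 1 KO). The labels give a number and a cage for each mouse, no strain or type of knockout allele, and no sex per mouse, although animals of both sexes were used. Mice are named by genotype and number. Values are given in TPM, a relative abundance corrected for transcript length, summed over the transcripts of a gene.

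Short-chain fatty acids, chiefly acetate, propionate and butyrate, are made from dietary fibre by gut bacteria, and butyrate is the preferred fuel of colonocytes. It enters through the proton-coupled transporter MCT1 (Slc16a1) and the sodium-coupled transporter SMCT1 (Slc5a8), is bound to coenzyme A by acyl-CoA synthetases, and passes through mitochondrial beta-oxidation. The resulting acetyl-CoA is burned or turned into ketone bodies, and part of the signal to other cells runs through surface receptors such as FFAR2.

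Nrg4 was listed at 0 TPM in all 11 mice, so its level could not check the genotype labels. None of the 9 genes lies on chromosome 9, which holds Nrg4. Epithelial markers were abundant in every mouse, with Epcam at 832 to 1155 TPM, and the absorptive colonocyte marker Car1 stood at 649 to 3312 TPM. Other markers of these lists were low, with Cdx2 at 5.13 to 23.6 TPM, Scnn1b at 1.70 to 6.50 TPM and Slc9a3 at no more than 0.0844 TPM. The smooth muscle marker Acta2 stood at 608 to 1258 TPM in this full-thickness tissue, and Des at 310 to 659 TPM. Of the same list, Smtn reached no more than 4.07 TPM and Myh11 was not listed. The keratins of squamous epithelium Krt5, Krt13, Krt14, Krt4 and Krt15 stayed below 1 TPM in every mouse, while the other 2 genes of the squamous list did not, with Sprr2a2 at 16391 to 24247 TPM and Sprr1a at 0.988 to 17.4 TPM. In such bulk tissue fewer cells of a type and less RNA per cell cannot be told apart. Mitochondrially encoded genes took 19.1% to 31.4% of the summed TPM in WT and 19.0% to 42.9% in KO, highest in KO-3, the only KO mouse of cage C. TPM keeps no sequencing depth, so the depth behind each value is unknown here.

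The first comparison asked whether the level of these genes differed between KO and WT mice, and no difference was detected for any of them. All 9 passed the filter of at least 1 TPM in at least 5 mice, and 0 of the 9 had an adjusted p below 0.05 (limma, Benjamini-Hochberg over 10756 genes), against 0.0372% of all genes tested. At an unadjusted p below 0.05 there were also 0 of 9, against 3.1% of all genes. In 0 of the 9 did the WT and KO mice separate without overlap, which 0.223% of all genes did. The log2 fold change, KO against WT on log2(TPM + 0.5), was above 0 for 3 of the genes and below 0 for 6, with a median of -0.035 beside -0.011 over all genes. With TPM rescaled without the mitochondrially encoded genes the split was 4 to 5. The 95% intervals differed in width between the genes, from 0.875-fold to 1.07-fold for Hadh to 0.613-fold to 1.53-fold for Slc16a3.

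**Figure D1:**
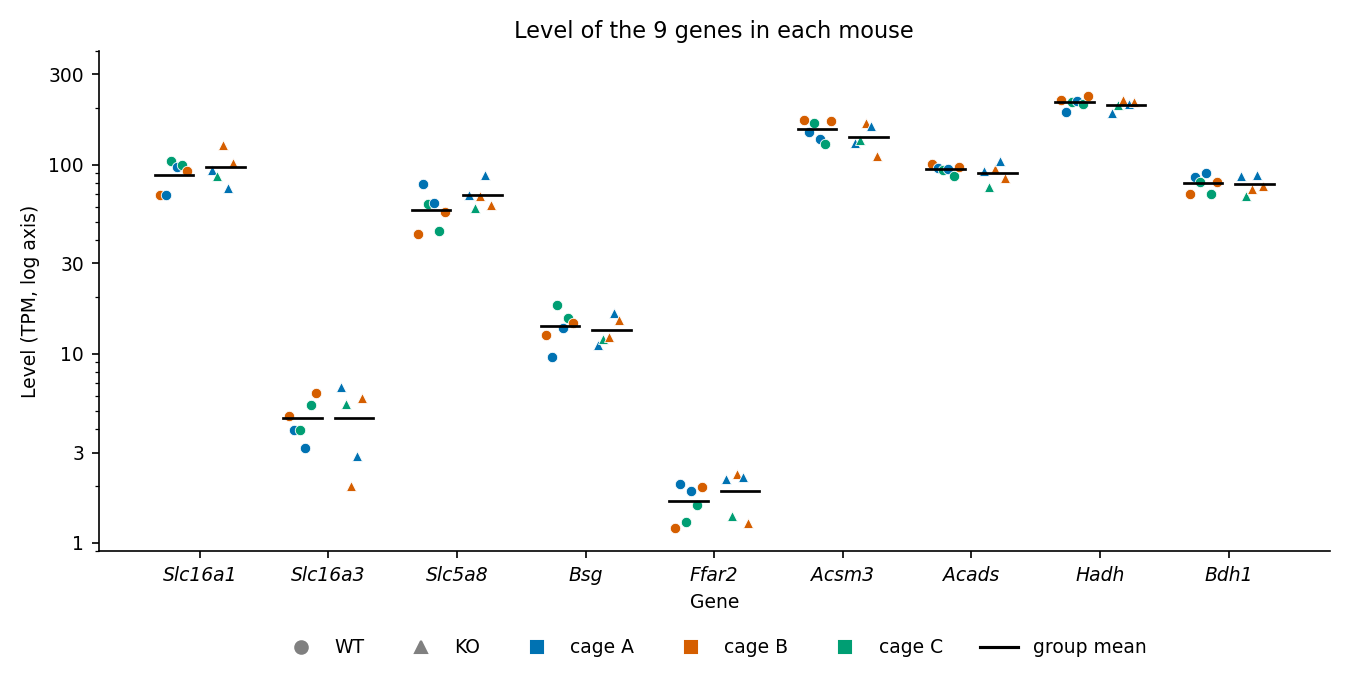
Level of each of the 9 genes in each mouse in TPM on a log axis, with WT mice as circles, KO mice as triangles, colours for cages and a black line for each group mean. WT and KO overlap for every gene, and levels run from 1.195 TPM for Ffar2 in WT-2 to 232 TPM for Hadh in WT-11.

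The genes differed far more from each other than between genotypes. In WT mice Hadh was highest with 214 ± 13.7 TPM (SD, n = 6), followed by Acsm3 with 153 ± 18.2 TPM, and neither overlapped its neighbours in the order. Acads (94.7 ± 4.58 TPM), Slc16a1 (88.6 ± 15.7 TPM), Bdh1 (79.5 ± 8.30 TPM) and Slc5a8 (57.8 ± 13.2 TPM) came next, and each overlapped the next in range, although Bdh1 exceeded Slc5a8 within each of the 6 WT mice. Bsg (14.0 ± 2.89 TPM), Slc16a3 (4.56 ± 1.10 TPM) and Ffar2 (1.66 ± 0.361 TPM) followed without overlap. GENCODE M21 lists 3 further coding transcripts each for Bsg, Slc16a3 and Ffar2, and 1 each for Acsm3 and Bdh1. These are not in the levels given here, so the order is that of the transcripts analysed. Among the 10756 genes tested the WT mean of Hadh lay at percentile 97.0 and that of Ffar2 at percentile 11.2. The enzymes were the steadiest of the 9: over all 11 mice the coefficient of variation was 6.20% for Hadh, 8.45% for Acads, 10.1% for Bdh1 and 13.7% for Acsm3. The other 5 genes varied more, from 18.3% for Bsg and 18.4% for Slc16a1 to 32.8% for Slc16a3.

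Of the transporters, Slc5a8 had the largest difference between genotypes. Slc5a8 (ENSMUSG00000020062, mm10 chr10:88885992-88929515, plus strand) encodes the high-affinity, sodium-coupled carrier of butyrate and other monocarboxylates on the luminal face of colonocytes. In WT it stood at 43.0 TPM in WT-2, 44.8 in WT-10, 56.0 in WT-11, 61.7 in WT-6, 62.6 in WT-7 and 78.7 in WT-5. In KO it stood at 59.0 TPM in KO-3, 61.1 in KO-9, 68.3 in KO-4, 69.4 in KO-1 and 88.2 in KO-8. The 3 lowest values were all from WT mice and the highest was a KO mouse, but the remaining values interleaved. The KO mean was 69.2 ± 11.5 TPM (SD, n = 5), beside a WT mean of 57.8 ± 13.2 TPM (SD, n = 6). The log2 fold change was 0.25 ± 0.12 (SE; limma adjusted p = 0.999886), and its 95% interval ran from 0.979-fold to 1.44-fold. The difference had the same sign in each cage, with 0.16 in A, 0.39 in B and 0.17 in C on the log2 scale. The Slc5a8 value stayed above 0 in all 23 alternative analyses, which reuse the same mice. It lay between 0.16 and 0.31, with an unadjusted limma p below 0.05 in 4 of them and an adjusted p of at least 0.814.

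Slc16a1 (ENSMUSG00000032902, chr3:104638668-104658462, plus strand), the proton-coupled MCT1, ranged in WT from 68.7 TPM in WT-5 over a median of 94.6 to 104.8 TPM in WT-6. In KO it stood at 74.9 TPM in KO-8, 87.3 in KO-3, 93.7 in KO-1, 102 in KO-9 and 126 in KO-4. KO-4 was the only KO mouse above the WT range. KO against WT gave a log2 fold change of 0.15 ± 0.15 (limma adjusted p = 0.999886; interval 0.876-fold to 1.398-fold), and the cages disagreed in sign, with 0.04 in A, 0.50 in B and -0.23 in C. With single mice left out it ran from 0.04 without WT-2 to 0.27 without KO-3.

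The promoters of both carriers are shown because they are the entry step for butyrate and because both carriers are read from 1 start each in the deposited table. The sequences are from RefSeq (GRCm38.p6, the assembly also named mm10), from 250 bases before to 50 after the start, 5′ to 3′ on the gene's strand. Capitals mark matches on either strand to 5 short motifs: the GC box GGGCGG, the CCAAT box, the TATA box TATAAA, the nuclear receptor half-site AGGTCA and the hypoxia response core ACGTG.
Slc16a1, chr3:104638414-104638713, plus strand: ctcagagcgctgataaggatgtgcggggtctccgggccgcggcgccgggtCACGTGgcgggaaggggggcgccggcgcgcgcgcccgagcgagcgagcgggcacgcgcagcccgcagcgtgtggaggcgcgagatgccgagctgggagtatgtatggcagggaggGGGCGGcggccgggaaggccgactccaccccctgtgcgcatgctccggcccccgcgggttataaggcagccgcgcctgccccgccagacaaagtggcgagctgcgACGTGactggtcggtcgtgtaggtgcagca
Slc5a8, chr10:88885742-88886041, plus strand: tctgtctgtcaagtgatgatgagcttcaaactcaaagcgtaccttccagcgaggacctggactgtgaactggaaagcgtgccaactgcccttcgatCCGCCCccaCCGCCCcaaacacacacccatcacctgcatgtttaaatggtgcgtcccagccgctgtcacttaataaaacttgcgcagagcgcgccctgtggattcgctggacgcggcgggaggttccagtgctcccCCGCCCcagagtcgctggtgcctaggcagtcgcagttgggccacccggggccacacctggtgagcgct
The Slc16a1 promoter had 73.7% G and C with 42 CG dinucleotides, and the Slc5a8 promoter 60.7% with 20, beside medians of 52.7% and 7 over 32851 promoters. Slc16a1 held 1 GC box and 3 matches to the hypoxia core, of which 2 overlap as the opposite strands of one palindrome. Slc5a8 held 3 GC boxes and no hypoxia core. Among all promoters of that length 35.7% held a GC box, 19.6% the hypoxia core, 37.4% the CCAAT box, 13.6% the TATA box and 16.3% the half-site. A match is a stretch of letters and not a measured site.

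Bsg (ENSMUSG00000023175, chr10:79704491-79711969, plus strand) encodes basigin, the partner protein that MCT1 and MCT4 need to reach the membrane. It ranged in WT from 9.58 TPM in WT-5 over a median of 14.1 to 18.2 TPM in WT-6, and in KO stood at 11.2, 12.0, 12.3, 15.1 and 16.5 TPM in KO-1, KO-3, KO-4, KO-9 and KO-8. Every KO value lay inside the WT range. The fitted difference was -0.02 ± 0.16 (limma adjusted p = 0.999886; interval 0.769-fold to 1.26-fold), with 0.23 in cage A and -0.47 in cage C, and its sign turned in 9 of 23 alternatives. The table holds a single Bsg transcript, with a coding length of 1167 bases. GENCODE M21 also lists shorter coding transcripts for the gene, which were not analysed here, so the value is that of 1 transcript and not of all basigin RNA.

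Slc16a3 (ENSMUSG00000025161, chr11:120948480-120960868, plus strand) encodes MCT4, a carrier known for lactate export. It ranged in WT from 3.18 TPM in WT-7 over a median of 4.31 to 6.20 TPM in WT-11. In KO it stood at 2.004 TPM in KO-4, 2.89 in KO-8, 5.45 in KO-3, 5.85 in KO-9 and 6.71 in KO-1. The KO mice thus fell on both sides of the WT range, with 2 below and 1 above it, and cage B spanned nearly the whole spread. The log2 fold change was -0.05 ± 0.30 (limma adjusted p = 0.999886), the least precise of the 9, with an interval from 0.613-fold to 1.53-fold. Its sign turned in 4 of 23 alternatives.

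**Figure D2:**
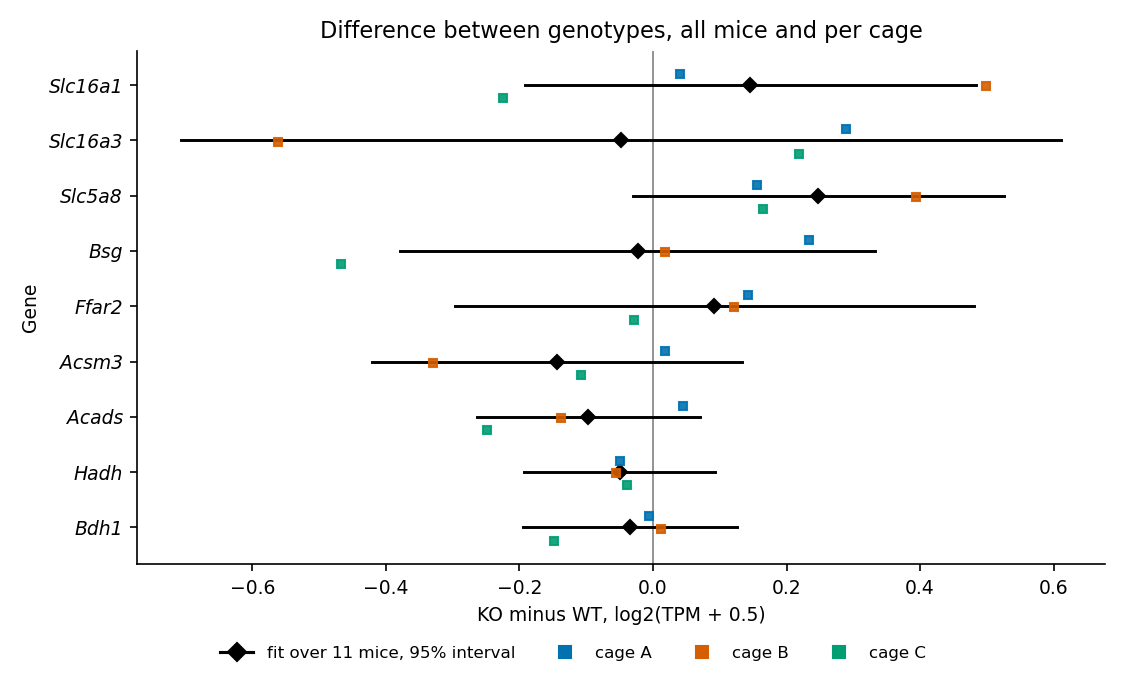
Difference KO minus WT on log2(TPM + 0.5) for each gene, with the fit over 11 mice and its 95% interval in black and the difference of means within each cage in colour. Every interval includes 0, and for 2 genes, Slc5a8 and Hadh, the 3 cages lie on the same side of 0.

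Ffar2 (ENSMUSG00000051314, chr7:30818348-30823775, minus strand), the receptor for acetate and propionate on enteroendocrine and immune cells, was the lowest of the 9. It ranged in WT from 1.195 TPM in WT-2 over a median of 1.72 to 2.05 TPM in WT-5, and in KO stood at 1.28 TPM in KO-9, 1.39 in KO-3, 2.19 in KO-1, 2.24 in KO-8 and 2.30 in KO-4. In KO 3 mice lay above the WT range and 2 near its lower end. KO minus WT was 0.09 ± 0.17 on the log2 scale (limma adjusted p = 0.999886; interval 0.814-fold to 1.395-fold). On this scale the pseudocount of 0.5 understates changes of so low a gene. All 8 enteroendocrine markers in the list were present in the table, 7 were tested, and 2 had values above 0 and 5 below 0, none called.

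All 3 enzymes that activate and oxidise butyrate had a log2 fold change below 0, none of them called. Of all 10756 genes tested, 5727 were below 0, and of the 3 enzymes only Hadh had the same sign in each cage. Acsm3 (ENSMUSG00000030935, chr7:119760923-119787513, plus strand) encodes a mitochondrial acyl-CoA synthetase that acts on butyrate. It ranged in WT from 128 TPM in WT-10 over a median of 157 to 172 TPM in WT-2, and in KO stood at 111 TPM in KO-9, 131 in KO-1, 135 in KO-3, 159.9 in KO-8 and 165 in KO-4. KO-9 alone lay below the WT range. The fitted difference on the log2 scale was -0.14 ± 0.12 (limma adjusted p = 0.999886; interval 0.747-fold to 1.10-fold). The cages disagreed in sign, with 0.018 in A, -0.33 in B and -0.11 in C.

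Acads (ENSMUSG00000029545, chr5:115110299-115119346, minus strand), the short-chain acyl-CoA dehydrogenase of the first oxidation step, ranged in WT from 86.5 TPM in WT-10 over a median of 95.2 to 100.3 TPM in WT-2. In KO it stood at 75.8 TPM in KO-3, 84.5 in KO-9, 92.8 in KO-1, 94.9 in KO-4 and 104 in KO-8. In TPM the KO mice spread more widely, with 2 below and 1 above the WT range and an SD of 10.7 against 4.58 TPM. Rescaled without the mitochondrially encoded genes, all 5 KO values, 172 to 206, lay inside the WT range of 169.9 to 214. The log2 fold change was -0.10 ± 0.07 (limma adjusted p = 0.999886; interval 0.833-fold to 1.05-fold). By cage it was 0.045 in A, -0.14 in B and -0.25 in C. The lowest mouse, KO-3, also had the highest mitochondrial share. On the rescaled values KO-3 stood at 172 and KO-9 at 174, above WT-10 at 169.9 and below every other mouse. The rescaled log2 fold change was -0.070, and the part of the mitochondrial share in it was not tested. Without KO-3, the only KO mouse of cage C, the log2 fold change in TPM was -0.046.

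Hadh (ENSMUSG00000027984, chr3:131233419-131272101, minus strand), the short- and medium-chain 3-hydroxyacyl-CoA dehydrogenase of the third oxidation step, had the narrowest spread. It ranged in WT from 191 TPM in WT-5 over a median of 216 to 232 TPM in WT-11, and in KO stood at 187 TPM in KO-1, 206 in KO-3, 208 in KO-8, 216 in KO-9 and 219.5 in KO-4. Only KO-1 lay outside the WT range, just below it. Its log2 difference was -0.05 ± 0.06 (limma adjusted p = 0.999886), with an interval from 0.875-fold to 1.07-fold. It was -0.05, -0.06 and -0.04 in cages A, B and C, the closest match between cages of the 9.

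Bdh1 (ENSMUSG00000046598, chr16:31422280-31458901, plus strand) encodes the mitochondrial enzyme that interconverts acetoacetate and beta-hydroxybutyrate, the last step of ketogenesis. In WT it stood at 69.6 TPM in WT-2, 69.9 in WT-10, 80.5 in WT-11, 81.4 in WT-6, 86.0 in WT-5 and 89.8 in WT-7. In KO it stood at 68.0 TPM in KO-3, 74.2 in KO-4, 76.8 in KO-9, 87.1 in KO-1 and 88.0 in KO-8. The genotypes covered the same range, and the log2 fold change was -0.03 ± 0.07 (limma adjusted p = 0.999886; interval 0.874-fold to 1.09-fold).

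The authors' deposited table carries their own sleuth comparison per transcript. It lists 18 transcripts of these genes, 16 with a p-value, and 0 of the 16 had a deposited p below 0.05, beside 2.24% of the 14763 transcripts with a p-value. In the authors' deposited table the smallest p among them was 0.0631, for Slc5a8, and every q was 1, while 5 transcripts in all, or 0.0339%, had a q below 0.05.

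The second question was whether the genes differed between cages. In the F test on cage 0 of the 9 were called, as was 0% of all genes tested (limma, adjusted over 10756 genes). At an unadjusted p below 0.05 there were 2 of the 9, Bdh1 (adjusted p = 0.365) and Slc5a8 (adjusted p = 0.3999, limma), against 12.1% of all genes. Bdh1 stood at 87.7 ± 1.59 TPM in cage A (SD, n = 4), 75.3 ± 4.58 TPM in cage B (SD, n = 4) and 73.1 ± 7.22 TPM in cage C (SD, n = 3). All 4 mice of cage A, of both genotypes, lay above all 7 others, at 86.0 to 89.8 TPM against 68.0 to 81.4 TPM, a pattern that 2.38% of all genes tested showed. Slc5a8 stood at 74.7 ± 11.1, 57.1 ± 10.7 and 55.2 ± 9.08 TPM in cages A, B and C. Cage A, from 62.6 TPM, overlapped cage B, which reached 68.3 TPM, but not cage C, which reached 61.7 TPM.

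A contrast of cage A with the mean of cages B and C was added after the results were known. It gave a log2 difference of 0.25 ± 0.07 for Bdh1 (limma adjusted p = 0.171) and of 0.39 ± 0.13 for Slc5a8 (limma adjusted p = 0.192). In this contrast 0 of the 9 genes were called and 2 had an unadjusted p below 0.05, against 0.0465% and 17.4% of all genes. Ffar2, at 2.08 ± 0.164 TPM in cage A, 1.69 ± 0.539 TPM in cage B and 1.42 ± 0.144 TPM in cage C, with the range of cage B spanning that of cage A, had a difference of 0.34 ± 0.18 (limma adjusted p = 0.347). The other 6 genes had unadjusted p of at least 0.147.

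Other values that went with cage A were set beside these. The Y-linked Eif2s3y stood at 21.5 to 31.8 TPM in cage A and at 0 to 0.0523 TPM in the others, so that sex and cage A cannot be told apart. The mitochondrial share was 19.0% to 24.7% in cage A and 22.3% to 42.9% in cages B and C. With TPM rescaled to a common total without the mitochondrially encoded genes, Bdh1 still did not overlap, at 174.6 to 192.7 rescaled TPM in cage A and 137 to 171 in the others. The share of all genes that separate in this way was counted on TPM and not on the rescaled values. With single mice omitted, the unadjusted limma value for cage ran from 0.0114 to 0.0677 for Bdh1 and rose above 0.05 without any one of WT-7, KO-1 and KO-3. For Slc5a8 it ran from 0.0152 to 0.137 and rose above 0.05 without any one of WT-5, WT-10, KO-3, KO-8 and KO-9.

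**Figure D3:**
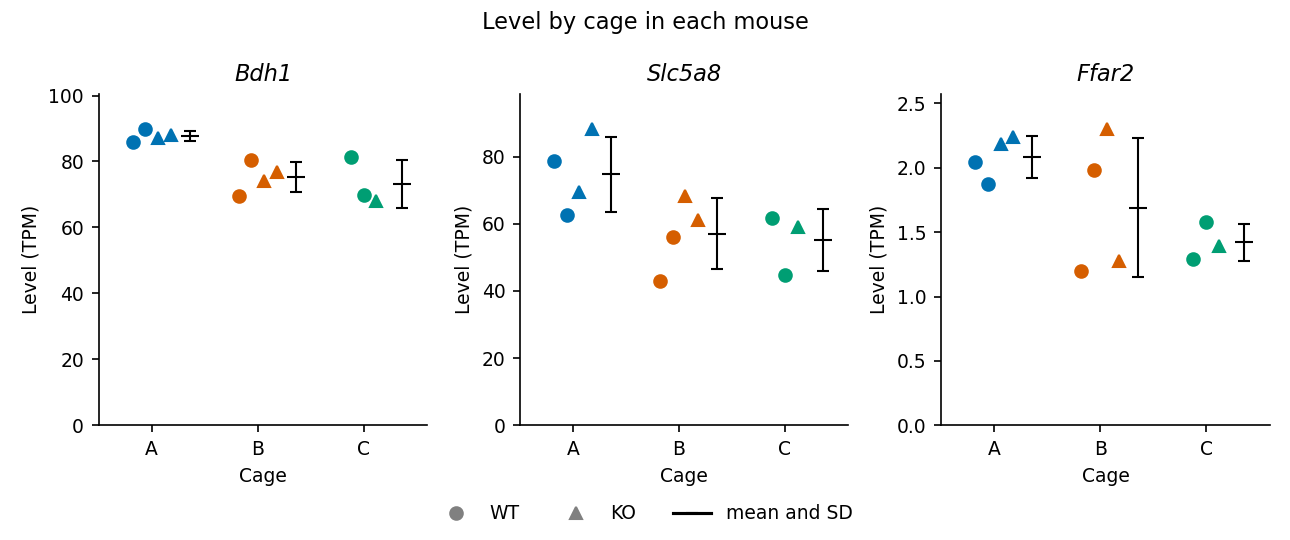
Level of Bdh1, Slc5a8 and Ffar2 in TPM in each mouse by cage, with WT as circles, KO as triangles, and the mean and SD of each cage beside its points. For Bdh1 the 4 mice of cage A, at 86.0 to 89.8 TPM, sit above all others. For Slc5a8 and Ffar2 cage A overlaps cage B and lies above cage C.

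Bdh1 was split over 3 transcripts with the same coding sequence of 1029 bases and different starts, so its sum was examined by transcript. ENSMUST00000115226.7, which starts at 31429299, stood at 38.2 to 50.8 TPM in cage A, at 16.0 to 35.9 TPM in cage B and at 16.2 to 37.1 TPM in cage C. Its lowest value in cage A lay above its highest elsewhere, and its share of the gene ran from 21.6% in KO-4 to 58.2% in WT-5. ENSMUST00000115227.9, which starts at 31428748, was even across cages, at 26.5 to 33.6 TPM over the 11 mice. ENSMUST00000089759.8, which starts upstream at 31422280, ran from 8.46 TPM in WT-7 to 25.9 TPM in WT-10. The transcripts share their coding sequence, so the split between them is an estimate. ENSMUST00000115227.9, with 3122 bases, ends at 31458901, beyond ENSMUST00000115226.7 (1496 bases, to 31457222) and ENSMUST00000089759.8 (1711 bases, to 31457497). The values of the 3 transcripts were chosen after they were seen and carry no test.

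The promoters of the starts of ENSMUST00000089759.8 and ENSMUST00000115227.9 are shown, since the transcripts differ in start and end but not in protein. The RefSeq starts lay 17 and 5 bases from the GENCODE starts of these transcripts. No promoter was held for the start of ENSMUST00000115226.7, the transcript that separated cage A, so neither sequence is from its start. That start lies beyond the window called downstream here. Capitals mark the same 5 motifs as above, on the plus strand of GRCm38.p6.
Bdh1 upstream, chr16:31422047-31422346: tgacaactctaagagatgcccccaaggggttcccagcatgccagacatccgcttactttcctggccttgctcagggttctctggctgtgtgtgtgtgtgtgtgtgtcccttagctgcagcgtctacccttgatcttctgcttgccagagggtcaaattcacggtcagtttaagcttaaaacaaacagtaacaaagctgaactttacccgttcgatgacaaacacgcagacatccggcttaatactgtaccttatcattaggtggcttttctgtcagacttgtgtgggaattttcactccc
Bdh1 downstream, chr16:31428503-31428802: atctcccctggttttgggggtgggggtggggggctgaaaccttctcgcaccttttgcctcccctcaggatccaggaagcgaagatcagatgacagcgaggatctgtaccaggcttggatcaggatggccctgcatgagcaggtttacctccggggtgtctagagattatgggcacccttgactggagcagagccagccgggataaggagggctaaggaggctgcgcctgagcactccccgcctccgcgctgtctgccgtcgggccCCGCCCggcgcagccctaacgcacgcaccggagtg
The upstream promoter had 48.3% G and C with 7 CG dinucleotides and no match to any of the motifs. The downstream promoter had 63.7% G and C with 17 CG dinucleotides and 1 GC box. No match says only that these letters are not in the window.

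**Figure D4:**
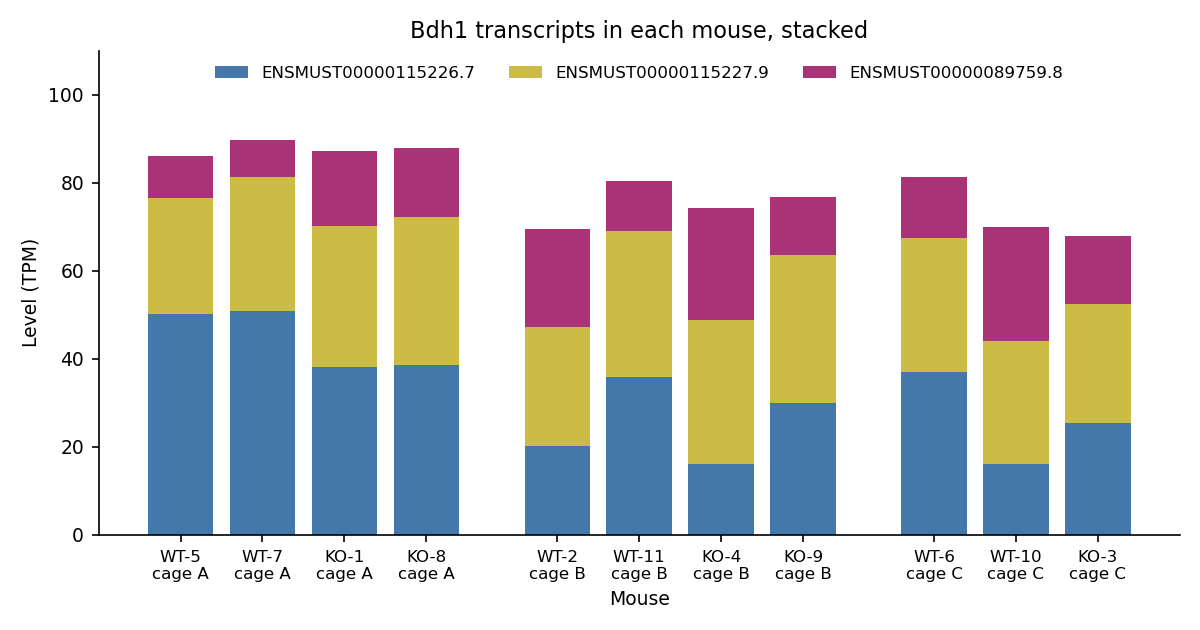
Level in TPM of the 3 Bdh1 transcripts in each mouse, stacked from 0 and ordered by cage. ENSMUST00000115226.7 takes 38.2 to 50.8 TPM in cage A and no more than 37.1 TPM elsewhere, while ENSMUST00000115227.9 is similar in every mouse.

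Next came the question whether KO and WT differed unequally across cages. In the interaction test 0 of the 9 genes were called, against 0.0186% of all genes tested, and 0 of them had an unadjusted p below 0.05, against 3.97% (limma). All 9 had an interaction adjusted p of 0.99989 (limma). The KO arm of cage C is a single mouse, which limits this test.

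How the genes varied together was compared over the 36 pairs, on log2(TPM + 0.5) in 11 mice. Of these, 18 pairs had a positive and 18 a negative r, and 0 of 36 passed an adjusted p of 0.05 (permutation test with 100000 resamples, two-sided, smallest adjusted p = 0.312, with 3 pairs at an unadjusted p below 0.05). Acsm3 and Acads, consecutive in butyrate oxidation, had r = 0.67 (permutation p = 0.0205, adjusted p = 0.312) and rho = 0.75 (permutation p = 0.0113, adjusted p = 0.158). With cage means removed r was 0.80 (exact within-cage permutation p = 0.0116, adjusted p = 0.385), and without the 2 mice farthest from the Acsm3 median it was 0.58. KO-9 and WT-10 had low values of both genes. Slc5a8 and Bdh1 had r = 0.72 (permutation p = 0.0118, adjusted p = 0.312) and rho = 0.74 (permutation p = 0.0131, adjusted p = 0.158), which went to 0.36 with cage means removed and to 0.59 without WT-2 and KO-8. Slc5a8 and Ffar2 had r = 0.67 (permutation p = 0.0260, adjusted p = 0.312) and rho = 0.74 (permutation p = 0.0131, adjusted p = 0.158), which went to 0.42 with cage means removed and to 0.45 without WT-2 and KO-8. The carrier Slc16a1 and its partner Bsg had r = 0.33 (permutation p = 0.315, adjusted p = 0.748). Bsg is read here from 1 transcript, so this r is not that of all basigin RNA. Slc16a3 had negative values with all 8 other genes. All pairs share the tissue's composition and the scale of TPM.

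**Figure D5:**
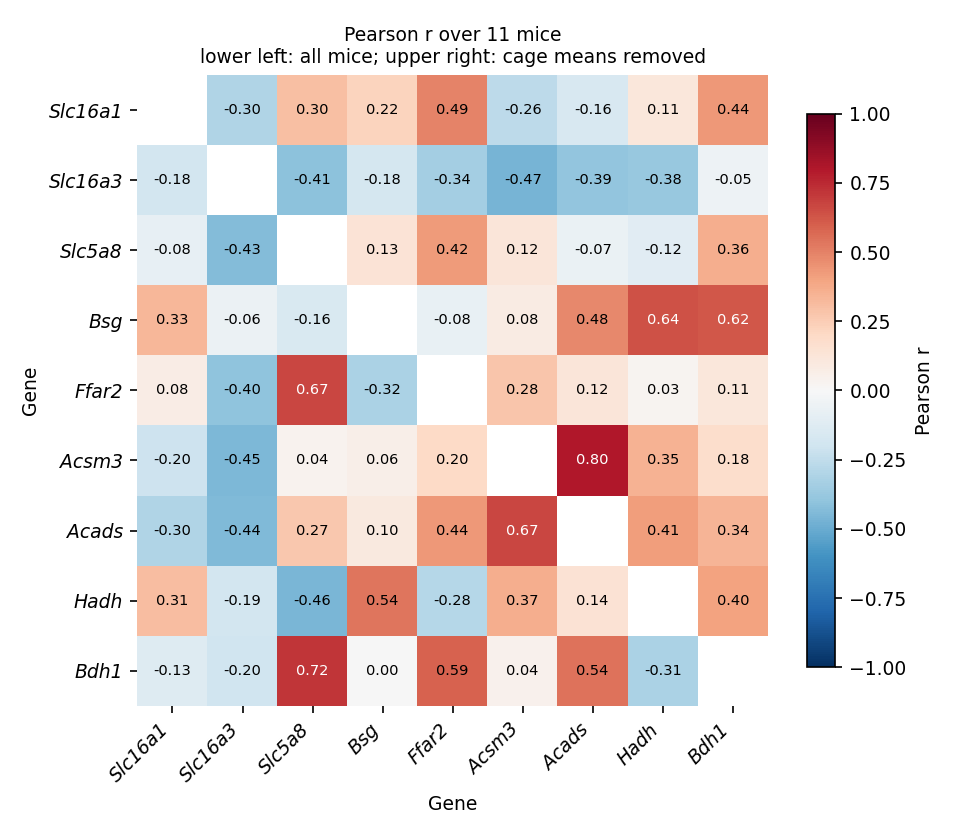
Pearson r between the 9 genes over 11 mice on log2(TPM + 0.5), below the diagonal for all mice and above it with cage means removed. Acsm3 with Acads is the darkest cell above the diagonal, at 0.80, and the row and column of Slc16a3 hold negative values.

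Among the 10747 other tested genes, the one most like each of the 9 was taken by Pearson r over the 11 mice, as a description without a test. Bdh1 was most like Tufm, a mitochondrial elongation factor, with r = 0.97, and 0.94 with cage means removed. Slc5a8 was most like Creb3l1, a membrane-bound transcription factor, with r = 0.95 and 0.93. Acads was most like Tax1bp3 (r = 0.93), Slc16a1 like Marcks (r = 0.92), Acsm3 like C330007P06Rik (r = 0.92), Bsg like Gng5 (r = 0.91), Ffar2 like Ptgr1 (r = 0.90), Slc16a3 like Ulk3 (r = 0.89) and Hadh like Mettl27 (r = 0.89). The highest of so many values is high in part because it was picked.

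The rest of the pathway was read from lists of 62 other genes, of which 60 were found in the table and 45 were tested. None was called by genotype, cage or interaction (limma). At an unadjusted p below 0.05 there were 0 for genotype, beside 3.1% of all genes, and 6, or 13.3%, for cage, beside 12.1% of all genes. The log2 fold change was below 0 for 33 and above 0 for 12, with a median of -0.056. With TPM rescaled without the mitochondrially encoded genes the split was 27 to 23 of 50 tested, and over all genes it went from 5727 below and 5029 above 0 to 5530 below and 6499 above.

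Of the other transport and sensing genes, 4 of 9 were tested, 1 above and 3 below 0. Ffar3, the receptor that prefers propionate and butyrate, averaged 0.843 ± 0.388 TPM over WT and 0.941 ± 0.280 TPM over KO mice. Olfr78, an olfactory receptor that responds to acetate and propionate, had 3.63 ± 1.10 and 3.03 ± 1.26 TPM, and the efflux pump gene Abcg2 40.1 ± 8.31 and 36.2 ± 7.53 TPM. Of the acyl-CoA synthetases, 3 of 8 were tested, and Acsm1 was listed at 0 in every mouse. Acsf2, a mitochondrial acyl-CoA synthetase, averaged 26.1 ± 3.43 TPM over WT and 30.2 ± 4.14 TPM over KO mice, a difference of 0.18 ± 0.09 (limma adjusted p = 0.999886). It stood at 31.8 ± 3.56 TPM in cage A, 26.8 ± 0.957 in B and 24.3 ± 3.75 in C (limma cage test, adjusted p = 0.356). The acetate-activating gene Acss2 had a log2 fold change of 0.09 ± 0.10.

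Of the other beta-oxidation genes, 16 of 18 were tested, 2 above and 14 below 0, and 7 above and 10 below 0 of 17 on the rescaled values. The enoyl-CoA hydratase gene Echs1, which acts between Acads and Hadh, had -0.15 ± 0.11, the electron carrier gene Etfa -0.10 ± 0.08 and the carnitine palmitoyltransferase gene Cpt1a -0.07 ± 0.08. Slc25a20, the carnitine-acylcarnitine carrier of the mitochondrial membrane, stood at 111 ± 27.1 TPM in cage A, 161 ± 23.1 TPM in B and 170 ± 19.8 TPM in C, with a limma adjusted p of 0.338 for cage. Of the ketone body genes, 4 of 6 were tested, all 4 below 0, and 3 above and 2 below 0 of 5 on the rescaled values. Aacs, which activates acetoacetate in the cytosol, had -0.12 ± 0.31, and Oxct1, which spends ketone bodies, 98.4 ± 12.5 TPM over WT and 96.3 ± 13.2 TPM over KO mice. Of the propionate genes, 6 of 8 were tested, 1 above and 5 below 0, and 3 above and 4 below 0 of 7 on the rescaled values, with the carboxylase subunit genes Pcca and Pccb at -0.06 ± 0.12 and -0.17 ± 0.19 and Mcee at 0.11 ± 0.10.

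All 6 lactate and pyruvate genes were tested, 2 above and 4 below 0. Ldha, which makes lactate, averaged 913 ± 216 TPM over WT and 758 ± 76.2 TPM over KO mice (-0.22 ± 0.15), the pyruvate carrier gene Mpc1 -0.06 ± 0.16 and the kinase gene Pdk4 -0.53 ± 0.40. WT-2 stood at 10.8 TPM of Pdk4 against 1.13 to 3.50 TPM in the other mice, and without it the value was -0.15. WT-10 stood at 1323 TPM of Ldha against 649 to 964 TPM in the other mice. With single mice left out the value of Ldha ran from -0.29 to -0.13. Of the regulators, 6 of 7 were tested, 4 above and 2 below 0. Pparg, a nuclear receptor of colonocytes, averaged 16.8 ± 6.79 TPM over WT and 13.4 ± 2.26 TPM over KO mice (-0.29 ± 0.25), Ppard 0.09 ± 0.09, and the coactivator gene Ppargc1a 0.12 ± 0.16. Without WT-2 the value of Pparg was -0.12.

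Markers of cell types were set beside these results. Of the 9 absorptive colonocyte markers tested, 3 were above and 6 below 0 with a median of -0.061, and their summed level was 3967 to 7856 TPM in WT and 4404 to 6348 TPM in KO. Epithelial markers split 5 to 4, goblet cell markers 5 to 2, neutrophil and macrophage markers 2 to 3 and adipocyte markers 1 to 1. All 6 smooth muscle markers tested and all 13 mitochondrially encoded genes had values above 0, the 1 skeletal muscle and 2 squamous markers tested values below 0. All 4 erythroid markers tested had values above 0 and an unadjusted p below 0.05, with a summed level of 15.9 to 57.3 TPM in WT and 30.6 to 127.7 TPM in KO. On the rescaled values more genes passed the filter, and the splits above and below 0 moved for several lists. They were then 4 and 5 for absorptive, 4 and 3 for enteroendocrine, 4 and 2 for neutrophil and macrophage, 6 and 1 for goblet, 2 and 1 for adipocyte, 2 and 1 for squamous and 1 and 2 for skeletal muscle markers. None of these markers was called (limma), and the part of cell types in the values of the 9 genes was not tested.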

How the data were processed

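Polyadenylated RNA of full-thickness distal colon from 11 mice was sequenced. The submitters' processing notes name mm10 and the tools kallisto, sleuth and CASAVA, without versions. The authors deposited TPM for principal transcripts, per the file headers. The same table holds the authors' deposited p-value and q-value per transcript, their log2 ratio, a natural log mean of normalized counts, and a likelihood-ratio score with further sleuth columns; only the first 3 were read.

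Of 29213 rows, 405 repeated a transcript and were dropped, and the TPM of 28808 transcripts were summed to 22243 genes. The summed TPM per mouse was 558446 to 770986, as other transcripts were not analysed here. Where 5 or more mice reached 1 TPM, a gene was tested with limma 3.58.1 (R 4.3.3, trend option) on log2(TPM + 0.5), in a model of genotype plus cage, with F tests for cage and for the interaction, and Benjamini-Hochberg adjustment over 10756 genes at 0.05. ± is the SD of TPM or the standard error of a log2 fold change. Correlations were computed with numpy 2.4.6 and scipy 1.17.1. Scripts were tested on simulated data. Positions are from GENCODE M21 (GRCm38), and promoters from RefSeq, which held 12 for 8 of the 9 genes.

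Alternatives were other pseudocounts, filters, scalings and weights, the most abundant transcript, no cage term, subsets of cages and each mouse left out. The genes and lists were chosen with earlier results of these data known. The labels do not say more of the mice than number, genotype and cage, so p-values measure the spread between these mice. Genes named are all 9, the 2 of each pathway list with the smallest genotype p and the 2 with the smallest cage p, and the 1 gene most like each of the 9. A gene that this rule also named is not reported here, though it is counted with its list. WT and KO share no mouse numbers, so no pairing was used.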

Additional observations from a re-analysis of the deposited data

How the results depend on the processing

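The number of the 9 genes called stayed at 0 in all 23 alternatives for genotype and in all 20 for cage, and that of correlated pairs at 0 in 13. The smallest adjusted p among the 9 lay between 0.811 and 1 for genotype and between 0.171 and 0.594 for cage. The number of all genes called by genotype, 4, was 2 with no filter, 1 without cage C, 0 in cage A alone (limma, 178 at an unadjusted p below 0.05), and 2 to 4 with single mice left out. The number called by cage, 0 (limma, 1303 at an unadjusted p below 0.05), was 4 with no filter, 5 for cage A against the mean of cages B and C, a contrast chosen after the data were seen, and 0 to 2 with single mice left out. The number called by the interaction, 2, was 12 with a pseudocount of 0.1, 49 with no filter, 1 with a filter of 5 TPM, 6 with array weights, and 0 to 5 with single mice left out. The cause of these moves was not tested.

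Of 834 single-gene values, 46 changed sign, all of them log2 fold changes without a call. The other 788 kept their side of the threshold, and their sign where they had one. These 788 include adjusted p-values for cage, which have no sign to change. The number of log2 fold changes that kept their sign is therefore smaller than 788. With median-of-ratios factors Oxct1 was 0.014. With TPM rescaled without the mitochondrially encoded genes Bsg was 0.00344 and Oxct1 0.026. With array weights Oxct1 was 0.00937. Without cage C, Bsg was 0.13, Bdh1 0.0031, Oxct1 0.025, Mpc1 0.086 and Ppargc1a -0.0046. In cage A alone Slc16a3 was 0.29, Bsg 0.23, Acsm3 0.018, Acads 0.045, Echs1 0.059, Slc25a20 -0.16, Aacs 0.14, Pcca 0.051, Pccb 0.0048, Ldha 0.053, Mpc1 0.11, Ppard -0.059 and Ppargc1a -0.18. In cages B and C together Acss2 was -0.042 and Oxct1 0.025. With single mice left out Oxct1 ran from -0.060 to 0.033, Bsg from -0.14 to 0.13, Slc16a3 from -0.25 to 0.22, Bdh1 from -0.071 to 0.0031, Ffar2 from -0.0059 to 0.18, Aacs from -0.39 to 0.076, Mpc1 from -0.17 to 0.086, Ppargc1a from -0.0046 to 0.24 and Pcca from -0.14 to 0.00098. Cage A alone was filtered on 2 mice and cages B and C together on 3, and Ffar2 was not tested with the filter of 5 TPM.

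No paired analysis was possible because WT and KO mice share no numbers in the labels. TPM gives no depth, cage C has 1 KO mouse, and cage A differs from the others in Y-linked transcripts, which limits the comparisons. The correlations with cage means removed were also chosen after the data were seen.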

Other observations

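Several genes of the pathway lay below the filter and were described by level alone. Slc5a12, the low-affinity relative of Slc5a8, and Acsm1 were listed at 0 TPM in all 11 mice. Hcar2, which encodes a receptor for beta-hydroxybutyrate and butyrate, averaged 0.268 TPM in WT and 0.171 TPM in KO. Slc16a7, which encodes MCT2, averaged 0.809 TPM over WT and 0.722 TPM over KO mice, and Slc16a4 0.0743 and 0.111 TPM. The cytosolic relative of Bdh1, Bdh2, averaged 0.295 TPM in WT and 0.520 TPM in KO.

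Acsm3 was spread over 4 transcripts with one coding sequence of 1740 bases. ENSMUST00000106527.7 took 48.7% to 81.1% of the gene and ENSMUST00000063770.9 took 17.8% to 49.9%, while ENSMUST00000106528.7 was listed at 0 in 8 of the 11 mice. In Ffar2, ENSMUST00000163504.7 took from 15.1% in WT-6 to 85.1% in WT-2. Both of these shares rest on gene levels below 2 TPM.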
